A study of Mus musculus with 4 samples.

Results

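Translation initiation factors are the proteins that bring a ribosome to the start codon of an mRNA. Their genes carry the symbol *Eif* in mouse, and 45 of the 11598 genes with a Ribo-seq value in leptotene/zygotene spermatocytes belonged to this group. They were chosen by symbol alone, from *Eif1* to *Eif6*, without the 4 eIF2α kinases (*Eif2ak1* to *Eif2ak4*) and without *Eif5a* and *Eif5a2*, whose product acts mainly in elongation. Ribo-seq counts ribosome-protected fragments (RPFs), the stretches of mRNA left after RNase I digestion because a ribosome covered them. It was applied to spermatocytes at the start of meiotic prophase I, sorted by FACS from testes of 12 dpp mice, with 2 libraries from control males and 2 from *Eef1g*-cKO males. The labels give the control genotype as wild type, and the study describes littermate controls. In *Eef1g*-cKO males *Stra8*-GFPCre removed several exons of *Eef1g*, which encodes the gamma subunit of elongation factor eEF1, from type A1 spermatogonia onward, so that somatic cells of the testis kept the gene. The labels do not say how many animals went into a library.

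As background, initiation begins when eIF2, carrying GTP and the initiator tRNA, joins the small ribosomal subunit together with eIF1, eIF1A, eIF3 and eIF5. The eIF4F group (the cap-binding protein eIF4E, the scaffold eIF4G and the helicase eIF4A) brings this complex to the capped end of the mRNA, and it then scans to the start codon. eIF5 triggers GTP hydrolysis on eIF2, eIF5B joins the large subunit, eIF2B reloads eIF2 with GTP, and the 4E-binding proteins hold eIF4E away from eIF4G when mTOR is inactive. Male germ cells are known for regulated use of stored mRNAs, and in mouse *Eif2s3y*, a gene of this set, lies on the Y chromosome.

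The control libraries held 2479504 and 1384282 reads counted on genes and the *Eef1g*-cKO libraries 223906 and 407979. Counts of replicate libraries differed by more than counting error in control (chi-square per degree of freedom 11.8) and in *Eef1g*-cKO (1.81). This measure grows with depth for the same relative spread, so these values do not rank the genotypes by spread. *Eef1g* itself had 107 and 58 reads in control against 0 and 4 in *Eef1g*-cKO, or 27.2 ± 0.567 and 3.13 ± 4.43 FPKM (SD over 2 libraries). The log2 fold change of −3.39 (standard error 0.91) missed the threshold in limma (adjusted p = 0.0731), and it ranged from −4.82 to −1.96 with any 1 library left out. Markers of leptotene/zygotene cells (10 of 10 in the table) summed to 4980 and 3863 reads per 1000000 reads counted on genes (RPM) in control, and to 9901 and 9709 RPM in *Eef1g*-cKO. Markers of spermatogonia (9 of 9) went the other way, from 2475 and 2981 to 438 and 436. Pachytene markers (4 of 6) summed to 779 and 586 in control against 1711 and 1777 in *Eef1g*-cKO, but they did not move together. Of these 4, *Hist1h1t* rose (log2 fold change 2.04, limma adjusted p = 0.0236), while 1 other passed as lower in limma only before adjustment. In older *Eef1g*-cKO testes the paper found no pachytene spermatocytes, and in adult ones no H1T, the *Hist1h1t* product. Sertoli markers (8 of 9) summed to 1030 and 259, then 237 and 159, peritubular markers (3 of 3) to between 49.1 and 125, and Leydig (3 of 5) and spermatid markers (2 of 5) to at most 25.3 in any library, while none of the 5 macrophage markers was in the table. RPF counts combine the number of cells of a type, the mRNA in each cell and the ribosomes on each mRNA. Changes in these cannot be told apart in such libraries, for the markers or for the initiation factor genes. The part the marker shifts had in the values of the initiation factor genes was not tested.

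Initiation factor genes were well covered as a group and moved little as a group. All 45 together took 10411 and 11459 RPM in control against 9767 and 9535 in *Eef1g*-cKO. Of the 45, 44 passed a mean of 1 FPKM (reads for each kilobase of a gene and 1000000 reads counted) and were tested with limma on log2(FPKM + 1), a scale that understates the change of low genes. Their log2 fold changes, *Eef1g*-cKO over control, ran from −1.37 to 1.01 with a median of −0.14, beside −0.23 over all 10475 genes tested. When each library was centred on its own median gene, the medians were 0.07 and −0.02, so the direction of the group as a whole depended on the scaling. An absolute log2 fold change of at most 1 was found for 37 of the 44 (84.1%), and for 66.7% of all genes tested, with no matching of the genes for level. In 11 members both *Eef1g*-cKO libraries exceeded both controls (24.6% of all genes tested) and in 17 both were lower (37.7% of all genes), so neither count stood clear of the background.

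**Figure D1:**
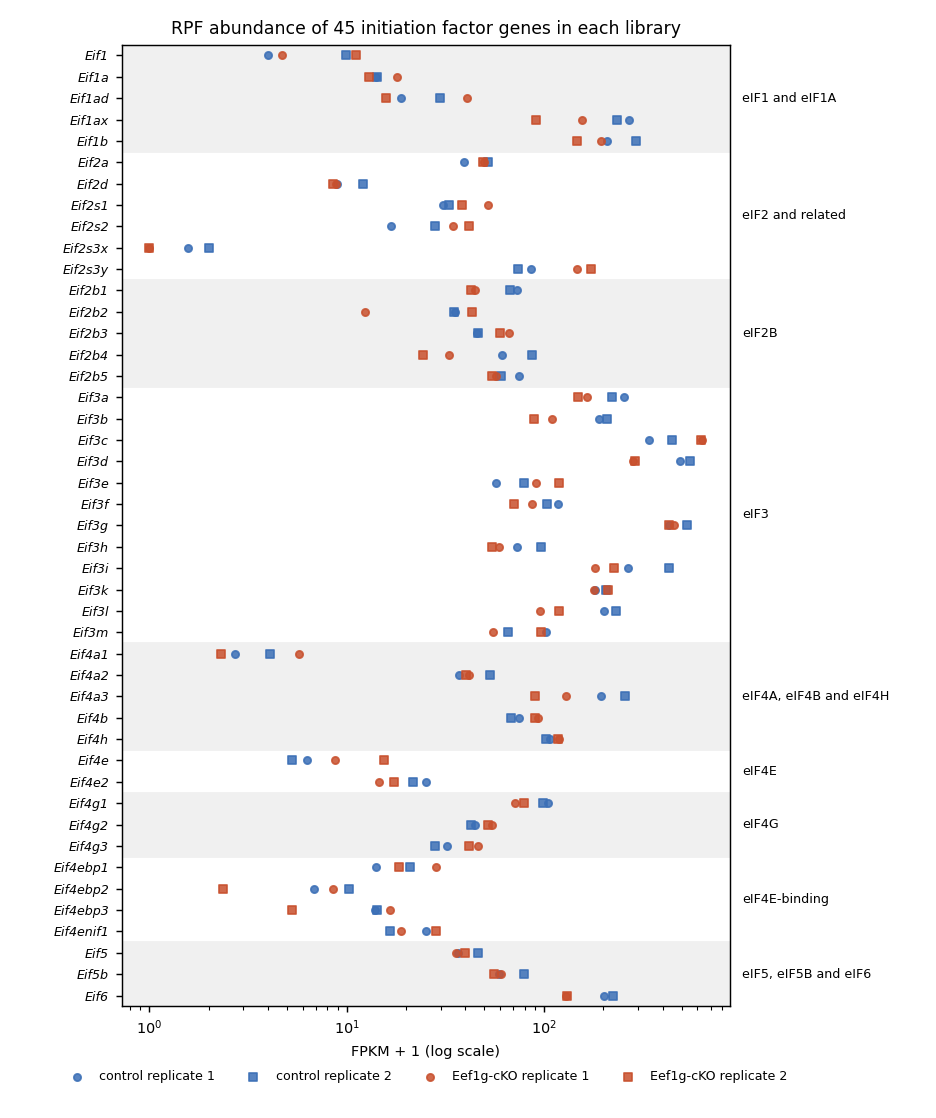
RPF abundance of the 45 initiation factor genes, as FPKM + 1 on a log axis, in each of the 4 libraries; blue points are control, red points *Eef1g*-cKO, circles replicate 1 and squares replicate 2. Genes are grouped by factor; *Eif2s3x*, *Eif4a1*, *Eif4e* and *Eif1* sit at the low end, from 0.785 to 5.97 FPKM in control (per gene length), and *Eif3d*, *Eif3g* and *Eif3c* at the high end.

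A gene was called at an adjusted p under 0.05 (Benjamini-Hochberg over all genes tested) and an absolute log2 fold change above 1. By this rule 1 member rose, *Eif2s3y*, against 2.87% of all genes tested, and 3 fell, *Eif2b4*, *Eif3b* and *Eif3l* (6.82% of members), against 4.97%. Their adjusted p-values lay between 0.0475 and 0.0484, just inside the threshold. At an unadjusted p under 0.05 with the same fold, *Eif1ax* and *Eif4a3* joined the genes that were lower, which made 5 lower and 1 higher against 16.3% and 7.32% of all genes. On the read counts, edgeR called the same number in each direction, 1 higher (*Eif2s3y*, 8.75% of all genes) and 3 lower (11.2%), but here the lower genes were *Eif1ax*, *Eif2b4* and *Eif4a3*, and DESeq2 called these same 4 genes against 5.94% and 5.34% of all genes. Without regard to the size of the fold, edgeR's adjusted p was under 0.05 for 2 members that were higher (*Eif2s3y* and *Eif3c*, 11.9% of all genes) and 7 that were lower (*Eif1ax*, *Eif2b4*, *Eif3b*, *Eif3d*, *Eif3l*, *Eif4a3* and *Eif6*, 12.7%). No gene of the whole table passed limma's adjusted p and fold when either control library was left out, and with the libraries centred on their medians the calls among members were 1 higher and 0 lower, and 0 higher and 3 lower when scaled without the reads of the spliceosomal RNA gene *Rnu11*.

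**Figure D2:**
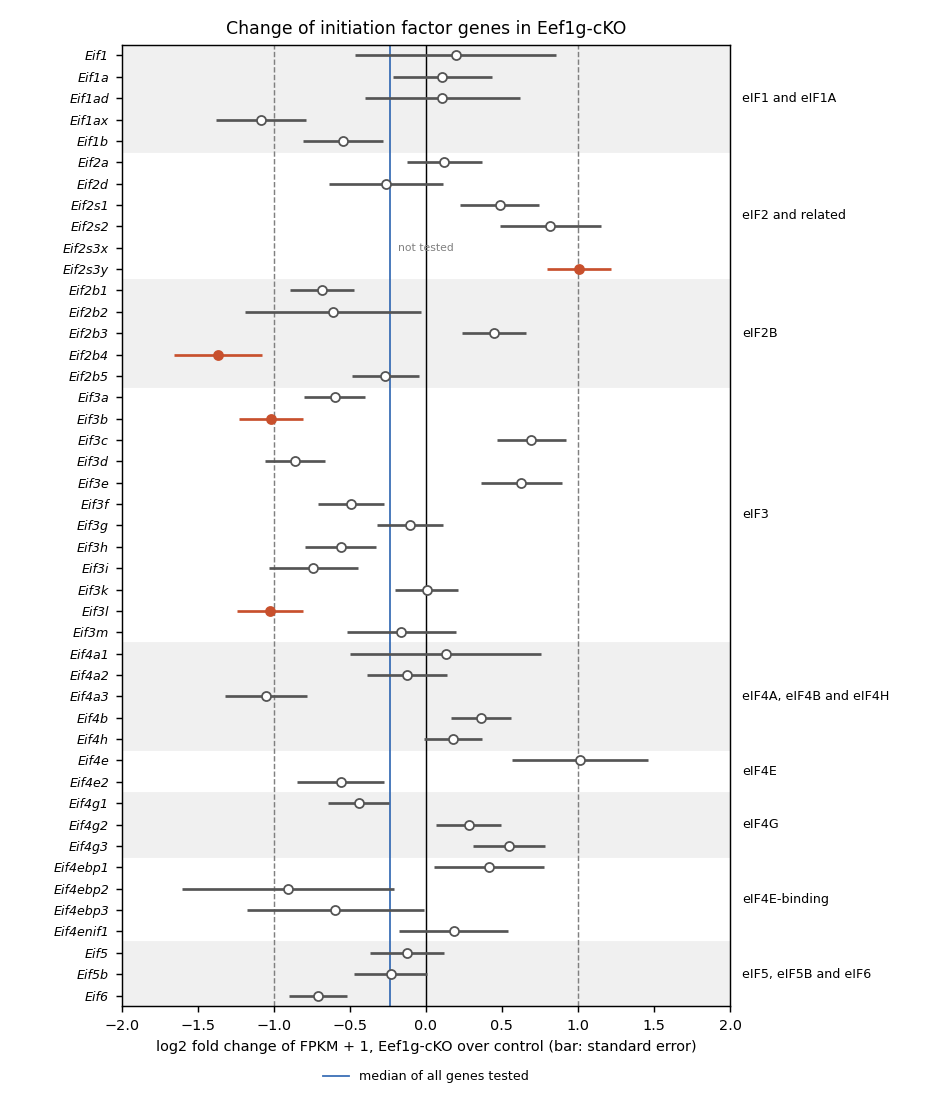
Log2 fold change of FPKM + 1 in *Eef1g*-cKO over control for the 44 members tested, with the standard error as a bar and genes grouped by factor. Filled red points are the 4 genes called by limma (adjusted p under 0.05 and absolute log2 fold change above 1), dashed lines mark a log2 fold change of 1 in either direction, and the blue line is the median of all genes tested, −0.23.

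eIF1 and eIF1A keep the scanning ribosome open and guard start codon choice. This group took 525 and 606 RPM in control against 473 and 301 in *Eef1g*-cKO, which did not overlap on this scale. The log2 ratio was −0.55, and −0.33 after division by the library medians. Of its 5 genes, 3 had a log2 fold change above 0, and the median was 0.11. *Eif1ax*, an X-linked gene for eIF1A, had 268 and 235 FPKM in control against 154 and 89.997 in *Eef1g*-cKO. Both *Eef1g*-cKO libraries were lower, at −1.08 on the log2 scale (standard error 0.30), a change whose adjusted p was 0.0762 in limma and 0.0100 in edgeR. The other eIF1A gene in the table, *Eif1a*, was low in every library, at 13.03 and 13.3 FPKM in control against 17.1 and 11.9 in *Eef1g*-cKO, so its genotypes overlapped. *Eif1ad*, which encodes a protein with an eIF1A-like domain, also overlapped, at 17.8 and 28.7 against 39.8 and 14.9 FPKM.

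Both mouse genes for eIF1 were present at very unequal levels. Per kilobase of coding sequence, *Eif1b* had 564 and 793 RPM in control, the highest mean of the 45 genes, and 527 and 398 in *Eef1g*-cKO. *Eif1* had 10.7 and 32.0 in control against 13.2 and 36.2 in *Eef1g*-cKO on the same scale, which rested on 9, 15, 1 and 5 reads. Neither gene was called (log2 fold changes −0.54 for *Eif1b* and 0.20 for *Eif1*, limma adjusted p = 0.223 and 0.861). Their coding sequences have the same length of 339 bases and 81.1% identity, and they share no stretch of 30 bases, about the size of an RPF, so a read from one can be told from the other. The stretch in which they differ most, given here to show that the pair is separable, lies at coding positions 286 to 315, with the 11 differing bases in capitals. In GRCm38 it is split by an intron and lies within chr11:100321038-100321334 for *Eif1* and chr9:120494625-120494930 for *Eif1b*, both on the plus strand.
Eif1: ttCctGAtAgagAttggGCtGgCTaaggaC
Eif1b: ttTctTCtGgagGttggCAtCgTCaaggaG

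*Eif1* and *Eif1b* also differed in how often their sequence occurs elsewhere in the genome. Every one of the 310 stretches of 30 bases in the *Eif1* coding sequence had an exact copy outside the gene, compared with 0.968% of those of *Eif1b*. The stretch with the most copies, shown next as an example of sequence that cannot be placed, is exonic at coding positions 230 to 259 (chr11:100320982-100321011, plus strand, GRCm38). It has 16 further copies on 12 chromosomes, 13 of them inside annotated pseudogenes.
Eif1: cagaatatggagaagtaattcagctacagg
The sources used here do not say whether reads with several matches were dropped or shared, and the part of these copies in the low level of *Eif1* was not tested.

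By RPM, without other scaling, eIF2 and the related factors *Eif2a* and *Eif2d* were the only factor group whose sum in both *Eef1g*-cKO libraries exceeded both controls. The sum was 391 and 444 RPM in control against 634 and 652 in *Eef1g*-cKO, 1.54-fold higher, with a gap between the genotypes larger than the spread within either. It kept this direction with other scalings, at a log2 ratio of 0.56 without *Rnu11* and 0.84 after division by the library medians. After this division the log2 ratio was also above 0 for eIF4G (0.23), the eIF4E-binding genes (0.30) and the group of eIF4A, eIF4B and eIF4H (0.11). The eIF2 sum was not computed with the trend with GC content at the third codon base removed. *Eif2s1*, *Eif2s2* and *Eif2s3y* had 40%, 38.4% and 28.2% GC at that base, and all genes under 45% had a median log2 fold change of 0.20. The part of base composition in the sum was not tested. All 3 subunits had genes above both control libraries. *Eif2s1* (the alpha subunit, the target of the stress kinases) had 29.7 and 32.1 FPKM in control against 51.0 and 37.3 in *Eef1g*-cKO, and *Eif2s2* (beta) 15.7 and 27.0 against 33.8 and 41.0, with limma adjusted p = 0.256 and 0.165, so that neither passed. *Eif2a*, an alternative initiator tRNA carrier that is not a subunit of eIF2, overlapped at 38.2 and 51.2 against 48.6 and 48.0 FPKM. *Eif2d*, which acts in recycling and reinitiation, was low at 7.93 and 11.04 against 7.80 and 7.49 FPKM (limma adjusted p = 0.662).

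The gamma subunit supplied most of this difference, with 150 and 129 RPM in control against 259 and 304 RPM in *Eef1g*-cKO for *Eif2s3y*. In FPKM this Y-linked gene, on which spermatogonial proliferation depends, had 84.9 and 72.8 FPKM in control against 147 and 172 in *Eef1g*-cKO. Both *Eef1g*-cKO libraries were far above both controls, with means of 78.8 ± 8.58 and 159 ± 17.97 FPKM (SD, n = 2 each). The log2 fold change was 1.01, with a standard error of 0.21 (limma adjusted p = 0.0482). edgeR gave 1.09 (adjusted p = 0.00224) and DESeq2 1.08 (adjusted p = 0.00905). The log2 fold change was 0.24 (limma adjusted p = 0.498) once each library's trend with GC content at the third codon base was removed. *Eif2s3y* had the lowest such GC content of all members, 28.2%. In *Eef1g*-cKO the sum of spermatogonia markers was lower and that of leptotene/zygotene markers higher. The part of cell composition in the change of *Eif2s3y* was not tested.

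Its X-linked partner *Eif2s3x* had 5 and 5 reads in control and none in *Eef1g*-cKO. No read in either *Eef1g*-cKO library allows up to 3 in each, which at their depth is more than the control level, so no change was detectable and the gene stayed under the filter. Both coding sequences are equally long (1416 bases, 86.3% identity) and share only 5 of 1387 stretches of 30 bases, so nearly all reads of *Eif2s3y* can be told from those of *Eif2s3x*. They are shown where they differ most, at coding positions 4 to 33 with 9 differing bases in capitals, from chrX:94212601-94212630 (minus strand) and chrY:1010620-1010649 (plus strand) of GRCm38, each within 1 coding exon.
Eif2s3x: gcTggGggTgaGgGTggAgtGactctcggT
Eif2s3y: gcGggCggAgaAgCCggTgtCactctcggG
As with *Eif1*, 95.1% of the stretches of *Eif2s3x* had an exact copy elsewhere, compared with 0.360% for *Eif2s3y*.

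eIF2B, the exchange factor that reloads eIF2 with GTP, has 5 subunits, and they did not move together. The complex as a whole took 688 and 699 RPM in control against 576 and 571 in *Eef1g*-cKO, a log2 ratio of −0.27 that shrank to −0.06 after division by the library medians. *Eif2b4* (delta, part of the regulatory core) fell, from 60.1 and 86.3 FPKM to 31.9 and 23.3. The genotypes were far apart, at −1.37 on the log2 scale (standard error 0.29, limma adjusted p = 0.0484), the largest decrease among members, and it was −1.36 in edgeR (adjusted p = 0.00399). *Eif2b1* (alpha) was lower in both libraries without being called, at 72.0 and 66.4 against 43.8 and 41.7 FPKM (limma adjusted p = 0.0962). *Eif2b3* (gamma, of the catalytic part) was higher in both, at 45.02 and 45.6 against 65.5 and 59.1 FPKM (limma adjusted p = 0.212). *Eif2b5* (epsilon, the catalytic subunit) was at 73.4 and 59.6 against 55.9 and 53.7 FPKM (limma adjusted p = 0.446), and *Eif2b2* (beta) spread too widely in *Eef1g*-cKO, 11.4 and 42.1 FPKM, to be placed.

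Shares within the complex do not depend on library scaling, but a larger share of any subunit leaves less for the others. For these, reads were divided by coding length and expressed as a percentage of all subunits in the library, where equal use would give 20% each. *Eif2b3* took 26.8% and 26.8% in control against 47.4% and 41.8% in *Eef1g*-cKO, and so went from the second largest share to the largest. *Eif2b4* took 14.9% and 21.2% in control against 9.62% and 6.89% in *Eef1g*-cKO, and went from the third place to the last. *Eif2b1* was also below its control share in both libraries, with means of 29.2% and 21.9%, while *Eif2b2* and *Eif2b5* overlapped. In *Eef1g*-cKO these shares and places rested on few reads. *Eif2b1* had 19 and 33, *Eif2b2* 4 and 27, *Eif2b3* 59 and 97, *Eif2b4* 15 and 20, and *Eif2b5* 32 and 56. Counting error of the shares was not computed. The coding sequences of all 5 subunits were free of stretches copied elsewhere.

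eIF3, the largest initiation factor, holds the small subunit open for mRNA and links it to eIF4G. Its 12 genes in the table took more RPFs than all other initiation factors together, 5593 and 6279 RPM in control against 5016 and 5013 in *Eef1g*-cKO. That was 0.845-fold, a log2 ratio of −0.24, and −0.03 after division by the library medians. Individual subunits ranged from −1.03 to 0.69, with 3 of 12 above 0, none of which was called higher by limma, edgeR or DESeq2.

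The subunits that limma called lower were *Eif3b* and *Eif3l*. *Eif3b*, a scaffold of the peripheral module, had 189 and 208 FPKM in control against 108 and 87.6 in *Eef1g*-cKO (log2 fold change −1.02, standard error 0.21, limma adjusted p = 0.0475). *Eif3l*, of the core octamer, had 202 and 232 FPKM in control against 94.4 and 118 in *Eef1g*-cKO (log2 fold change −1.03, standard error 0.22, limma adjusted p = 0.0482). In neither gene did the genotypes overlap. edgeR gave −0.96 and −0.93 (adjusted p = 0.00410 and 0.00652), past its p threshold but under the fold. Centred on library medians, limma gave −0.80 and −0.81 (adjusted p = 0.0651 and 0.0698). With the trend with third-base GC removed it gave −0.74 and −0.66 (adjusted p = 0.0852 and 0.102). *Eif3b* and *Eif3l* had 68.4% and 72.0% GC at that base. *Eif3d*, a cap-binding subunit, came next, at 488 and 551 against 283 and 287 FPKM (log2 fold change −0.86, limma adjusted p = 0.0560). *Eif3i*, *Eif3a*, *Eif3h* and *Eif3f* were below both controls as well, with log2 fold changes of −0.74, −0.60, −0.56 and −0.49 and no call.

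*Eif3c*, a core subunit that docks on the small ribosomal subunit, moved the other way. It had 341 and 445 FPKM in control against 635 and 626 in *Eef1g*-cKO. Both *Eef1g*-cKO libraries were above both controls and close to each other, at 0.69 on the log2 scale (standard error 0.23), a change that did not pass limma (adjusted p = 0.108) and had an adjusted p of 0.0132 in edgeR at a fold under the threshold. *Eif3e*, its neighbour in the octamer, was also above, at 56.0 and 78.3 against 89.8 and 118 FPKM (log2 fold change 0.63, limma adjusted p = 0.176). *Eif3k*, *Eif3g* and *Eif3m* overlapped, with log2 fold changes of 0.01, −0.10 and −0.16. *Eif3k* was nearly level, at 180 and 206 FPKM in control against 179 and 210 in *Eef1g*-cKO.

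As shares of eIF3 per coding length, where equal use would give 8.33%, the order of subunits changed at the top. *Eif3d* was first in control with 17.6% and 17.1%, and the third in *Eef1g*-cKO with 11.7% and 11.5%. *Eif3c* went from the third place, 11.2% and 12.5%, to the first, 23.8% and 22.7%, and *Eif3g* was second in both genotypes, with means of 15.3% and 17.3%. In *Eef1g*-cKO the share was above both controls for *Eif3c*, *Eif3e*, *Eif3g* and *Eif3k*, below both for *Eif3a*, *Eif3b*, *Eif3d*, *Eif3h*, *Eif3i* and *Eif3l*, and overlapping for *Eif3f* and *Eif3m*. A larger share of any subunit leaves less for the others, and *Eif3g* and *Eif3k* overlapped in FPKM. Shares were computed only for eIF3 and eIF2B, so these lists have no background beside them. Subunits of the octamer (*Eif3a*, *Eif3c*, *Eif3e*, *Eif3f*, *Eif3h*, *Eif3k*, *Eif3l* and *Eif3m*) stood on both sides. At the low end, *Eif3e*, *Eif3m* and *Eif3h* had mean control shares of 2.21%, 2.67% and 2.79%, and 50.8%, 62.5% and 46.8% of their 30-base stretches had a copy elsewhere. *Eif3c* had 13.5% and *Eif3l* none.

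**Figure D3:**
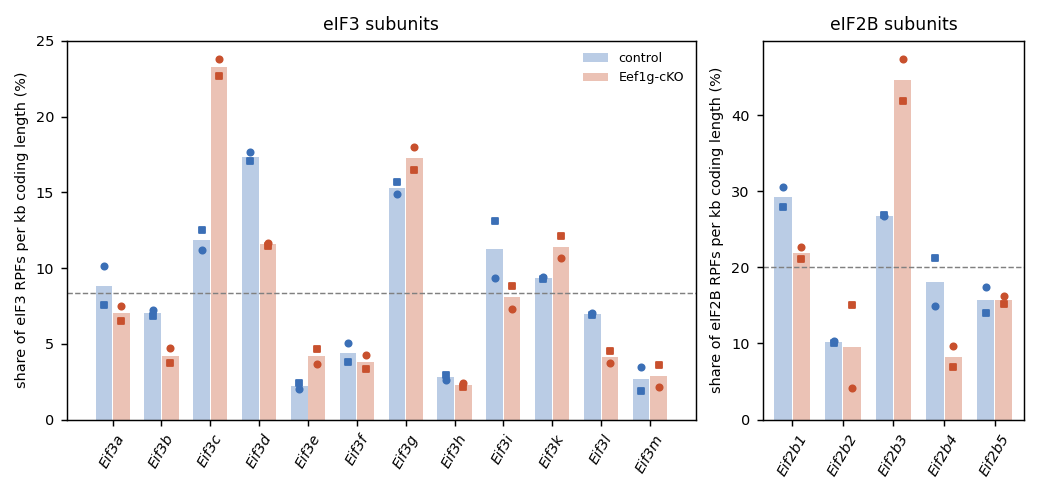
Share of each subunit in the RPF reads per kilobase of coding length of its complex, in percent, for eIF3 (12 genes) and eIF2B (5 genes). Bars are the mean of 2 libraries, points the single libraries (blue control, red *Eef1g*-cKO), and the dashed line is the share under equal use, 8.33% or 20%; *Eif3c* and *Eif2b3* carry the largest share in *Eef1g*-cKO.

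eIF4A unwinds the mRNA leader, and eIF4B and eIF4H stimulate it. This group took 939 and 1053 RPM in control against 969 and 882 in *Eef1g*-cKO, which overlapped. *Eif4a3*, a related helicase that works in the exon junction complex rather than in initiation, had 193 and 257 FPKM in control against 128 and 88.8 in *Eef1g*-cKO. It was lower in both libraries, at −1.05 on the log2 scale (standard error 0.27), a change that missed limma's adjustment (adjusted p = 0.0664) and passed in edgeR (adjusted p = 0.00695). *Eif4b* was at 73.5 and 67.5 against 92.7 and 89.0 FPKM (log2 fold change 0.36, limma adjusted p = 0.267). *Eif4h* was at 106 and 102 against 119 and 117 FPKM (limma adjusted p = 0.551). The replicates of these cofactors lay close together, and both *Eef1g*-cKO libraries were above both controls, and neither gene was called.

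The canonical helicase was seen almost entirely through *Eif4a2*. Per kilobase of coding sequence, *Eif4a2* had 94.6 and 136 RPM in control against 106 and 102 in *Eef1g*-cKO, while *Eif4a1* had 2.65 and 4.74 in control against 7.33 and 2.01 in *Eef1g*-cKO, from 8, 8, 2 and 1 reads. Neither differed between genotypes beyond the spread. In *Eif4a1*, 99.2% of the 30-base stretches had an exact copy elsewhere, and in *Eif4a2* 40.9%. The stretch of *Eif4a1* with the most copies is exonic, at coding positions 224 to 253 (chr11:69670225-69670254, minus strand, GRCm38), and all 6 of its copies, on 5 chromosomes, lie in annotated pseudogenes. It is shown because its gene encodes the main eIF4A of most tissues yet had almost no counted reads.
Eif4a1: aagcccagtctgggactgggaaaacagcta

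The cap-binding genes were *Eif4e* and *Eif4e2*. *Eif4e*, which binds the mRNA cap, had 5.32 and 4.26 FPKM in control against 7.75 and 14.5 in *Eef1g*-cKO, from 38, 17, 5 and 17 reads. Both *Eef1g*-cKO libraries were higher, with a log2 fold change of 1.01 and a standard error of 0.45 (limma adjusted p = 0.190, edgeR adjusted p = 0.0872), so the change was not called by either. *Eif4e2*, a cap-binding homolog that represses translation, had 24.3 and 20.8 FPKM in control against 13.6 and 16.4 in *Eef1g*-cKO (log2 fold change −0.56, limma adjusted p = 0.242). Per coding length *Eif4e2* was the higher of the pair in control, at 143 against 21.2 RPM per kilobase, and *Eif4e* had copies elsewhere for 85.9% of its stretches against 3.21% for *Eif4e2*.

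The scaffolds eIF4G were level as a sum, 1101 and 1026 RPM in control against 1081 and 1076 in *Eef1g*-cKO, a log2 ratio of 0.02, and 0.23 after division by the library medians. *Eif4g1*, the main scaffold, had 104 and 98.3 FPKM in control against 70.1 and 78.3 in *Eef1g*-cKO. *Eif4g3*, the paralog that male meiosis depends on, had 31.2 and 27.1 FPKM in control against 45.2 and 40.7 in *Eef1g*-cKO. These paralogs thus lay on opposite sides of control, without overlap (log2 fold changes −0.44 and 0.55), but neither passed (limma adjusted p = 0.199 and 0.182). *Eif4g2*, a form that lacks the cap-binding partner site and serves initiation without eIF4E, was at 43.97 and 41.5 against 53.5 and 50.9 FPKM (limma adjusted p = 0.405).

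Proteins that bind eIF4E gave few reads, and none was called. *Eif4ebp1* and *Eif4ebp2*, which mTOR inactivates by phosphorylation, had 32, 27, 6 and 7 reads and 26, 23, 3 and 1 reads in the 4 libraries. The log2 fold changes of 0.41 and −0.91 had standard errors of 0.36 and 0.70 (limma adjusted p = 0.472 and 0.412), and for both genes the genotypes overlapped. *Eif4ebp3* had 37, 21, 4 and 2 reads, and 66.0% of its coding sequence is shared with exons of a neighbouring annotated transcript, so its reads cannot be assigned to it alone. *Eif4enif1*, which carries eIF4E into the nucleus and to P-bodies, overlapped at 24.1 and 15.5 against 17.9 and 27.2 FPKM (limma adjusted p = 0.755).

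Among the factors of subunit joining, *Eif6*, which keeps free large subunits from joining too early, had 202 and 222 FPKM in control against 128 and 130 in *Eef1g*-cKO. The *Eef1g*-cKO libraries agreed closely and were below both controls, at −0.71 on the log2 scale (standard error 0.19, limma adjusted p = 0.0730, edgeR adjusted p = 0.0470). *Eif5* was at 35.8 and 45.4 against 34.9 and 38.9 FPKM (limma adjusted p = 0.756). *Eif5b* was at 58.3 and 77.9 against 59.6 and 55.01 FPKM (limma adjusted p = 0.537), so both overlapped.

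Genes that work next to the initiation factors were read from a list of 41, of which 39 were in the table and 37 were tested. Of these, 1 rose and 2 fell by adjusted p and fold, against 2.87% and 4.97% of all genes, and the median log2 fold change was −0.02. *Pabpc1*, the poly(A)-binding protein that bridges the mRNA tail to eIF4G, rose from 69.1 and 47.6 FPKM to 131 and 176 (log2 fold change 1.39, limma adjusted p = 0.0437). *Tsc2*, a brake on mTOR, fell from 22.9 and 20.9 FPKM to 7.64 and 5.34 (log2 fold change −1.63, limma adjusted p = 0.0475). *Dhx29*, a helicase that helps scanning through structured leaders, fell from 25.5 and 25.6 FPKM to 9.81 and 8.37 (log2 fold change −1.40, limma adjusted p = 0.0476). All 3 were also past edgeR's adjusted p (at most 0.00557). edgeR and DESeq2 each called 3 partners lower; in edgeR *Denr*, a recycling and reinitiation factor, joined them, at 127 and 185 FPKM in control against 89.9 and 52.6 in *Eef1g*-cKO (limma log2 fold change −1.14, adjusted p = 0.0854, edgeR adjusted p = 0.00615).

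The initiation factor genes with the most copied coding sequence were among the lowest. Per kilobase of coding length, the 3 genes with over 90% of stretches copied (*Eif2s3x*, *Eif4a1* and *Eif1*) had control means of 1.99, 3.70 and 21.3 RPM, a median of 3.70, against 84.8 for the 12 members with none copied and 199 for the 16 members with up to 10%. Low levels were also found without many copies, since *Eif2d*, with 1.79% copied, was at 12.3, below *Eif1*. Over all 10824 genes with a coding sequence the medians lay closer together, at 14.6 for the 138 genes over 90% (1.27% of genes) and 16.2 for the 7647 with none. The 6 members with over 50% and up to 90% copied ranged from 21.2 (*Eif4e*, 85.9% copied) to 267 (*Eif4a3*, 52.0%), with *Eif2s2* (84.4%) at 54.1. The part of copied sequence in these levels was not tested.

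**Figure D4:**
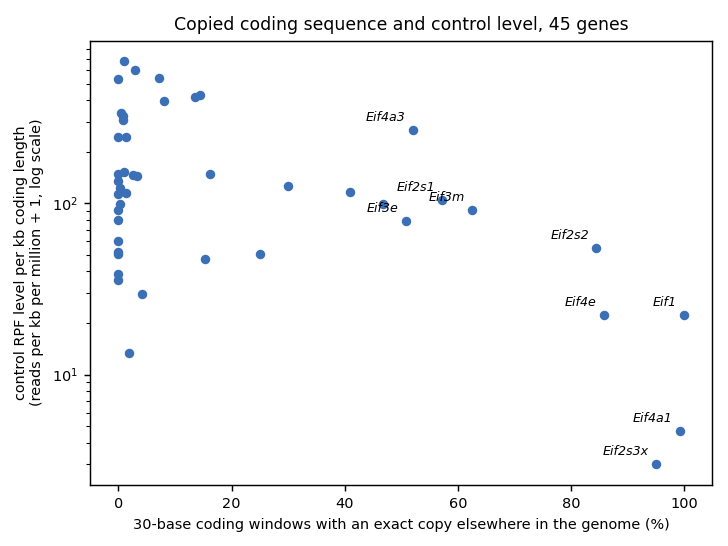
Control RPF level per kilobase of coding length (RPM per kilobase + 1, log axis) against the percentage of 30-base coding stretches with an exact copy elsewhere in the GRCm38 chromosomes, 1 point for each of 45 genes. Genes over 50% are named; *Eif2s3x* and *Eif4a1* lie lowest, and *Eif4a3* at 52.0% lies among the high ones.

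GC content at the third codon base, a property the choice of genes did not use, went with the direction of change. Spearman's rho between it and the log2 fold change was −0.50 over 44 members and −0.30 over 9782 genes, a description across genes that share the same 4 libraries. Of 20 members with over 60% GC, 4 had a log2 fold change above 0, with a median of −0.56. Of the 13 under 45%, 8 were above 0, with a median of 0.12. The medians of all genes in these bins were −0.53 and 0.20. Between 45% and 60%, 7 of 11 members were above 0 with a median of 0.18, while the median of all genes there was −0.06. *Eif1ax*, at 38.9%, and *Eif3a*, at 39.4%, were low-GC genes with lower RPFs in *Eef1g*-cKO, and *Eif3c*, at 61.4%, was a high-GC gene above both controls. With the trend removed from each library, limma called *Eif1ax*, *Eif2b4* and *Eif3a* lower and none higher, which left *Eif2b4* as the only member called both ways. The alternative was chosen after the data had been seen, and the part of base composition in the other calls was not tested.

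**Figure D5:**
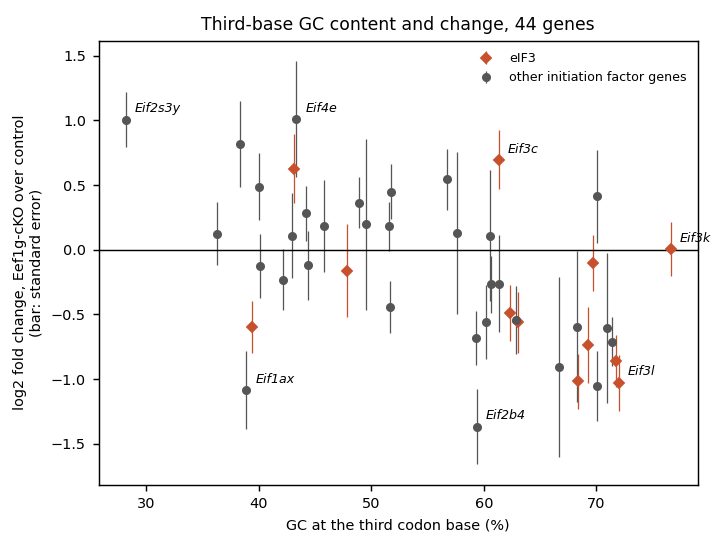
Log2 fold change in *Eef1g*-cKO over control (standard error as a bar) against GC content at the third codon base in percent, for the 44 members tested; red diamonds are eIF3 subunits and grey circles the other genes. Of the 20 genes over 60% GC, 4 lie above 0, among them *Eif3c* and *Eif3k*.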

How the data were processed

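The authors deposited 1 table of 11598 genes for the 4 libraries. Its FPKM were computed by the authors per kilobase of gene length and 1000000 reads counted on genes. Its normalized counts are a signal that the authors made by dividing each count by a size factor per library, and 100% of values in each library were whole multiples of its step (relative tolerance 0.001), which gave the reads. Columns of the authors' own comparison (log2 fold changes with errors, a test score, p-values) were deposited too and not used. Methods name adapter trimming, filtering, genome alignment and RiboMiner; the submitters' processing notes name cutadapt, Bowtie, STAR, mm10 and hg38 without roles. The counter and the treatment of reads with several matches are not given in the sources used here.

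limma 3.58.1 (R 4.3.3, trended prior, pseudocount 1 FPKM, mean of at least 1 FPKM) was the main test over all genes, with edgeR 4.0.16 (quasi-likelihood, TMM) and DESeq2 1.42.0 on reads as alternatives. The limma, edgeR and DESeq2 fits were tested on simulated counts, and the other steps were not. Library totals ranged from 223906 to 2479504 reads; counting limits (3 reads for a count of 0) cover counting error only. FPKM use a gene length that includes UTRs, so levels of different genes were compared in the text per coding length, from the longest coding sequence of GENCODE M21 on GRCm38 (mm10; Python 3.11.15, numpy 2.4.6). All its stretches of 30 bases were searched on both strands of the chromosomes.

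Named are *Eef1g*, called members, and in each factor group the member with the highest mean FPKM and those with the highest and lowest log2 fold change, likewise called partners; others were named after their values were seen. Members and lists were chosen with earlier results of these data known. *Eif3j*, *Eif3j1*, *Eif3j2*, *Eif4e1b* and *Eif4e3* had no value under these symbols, so the eIF3 and eIF4E sums do not include them. Nothing says that replicates share animals or days, so p-values measure the spread between 2 samples per genotype, which the series describes as biological replicates.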

Additional observations from a re-analysis of the deposited data

How the results depend on the processing

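Counts of calls rested on adjusted p-values close to 0.05. Eif genes called higher and lower, 1 and 3, were 0 and 0 with a pseudocount of 0.1 FPKM, without the filter, with an untrended prior variance and with reads thinned to the smallest library, and initiation partners, 1 and 2, were then also 0 and 0. A pseudocount of 5 FPKM gave 0 higher by adjusted and by unadjusted p, as did scaling without *Rnu11*. Centring gave 0 lower, 3 and 1 higher and lower by unadjusted p (1 and 5 as reported) and 0 partners lower. Lower genes by unadjusted p numbered 3 after thinning, in edgeR with and without filter and in DESeq2, with 2 higher in edgeR either way. Removing the trend with third-base GC, an alternative chosen after seeing the data like the division of sums by library medians, gave 0 higher by either p, 3 lower by unadjusted p and 0 partners higher.

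The median log2 fold change of Eif genes, −0.14, was 0.070 centred, −0.24 thinned, −0.066 in edgeR without filter and −0.34 without the GC trend. *Eef1g* passed both thresholds with a pseudocount of 5 FPKM (−2.10) and in edgeR (−2.68, with and without filter). Summed RPM of factor groups, as log2 ratios, moved by more than their replicate SD without *Rnu11* for eIF2B (−0.34) and eIF4G (−0.042), and after thinning for eIF2B (−0.18), eIF4A, eIF4B and eIF4H (0.039) and eIF4E (−0.70). Division by library medians gave 0.84 for eIF2 and related, −0.061 for eIF2B, −0.030 for eIF3, 0.11 for eIF4A, eIF4B and eIF4H, 0.23 for eIF4G, 0.30 for the eIF4E-binding genes, −0.15 for eIF5, eIF5B and eIF6 and 0.034 for all members. Single genes changed sign at *Eif5* (0.089 centred), *Eif1* (−0.42 thinned, −0.14 without the GC trend), *Eif2b5* (0.31 thinned) and *Eif4enif1* (−0.24 without the GC trend). The cause was not tested for any of these.

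With each library left out in turn, Eif genes called higher were 0 each time, called lower 0 to 4, and by unadjusted p 0 to 2 higher and 0 to 6 lower, partners 0 to 1 and 0 to 4, and the median ran from −0.33 to −0.036. *Eef1g* ran from −4.82 to −1.96. The genes called lower differed with the library left out, and *Eif3b* was never among them. Log2 fold changes ran from −1.63 to −1.11 for *Eif2b4*, −1.17 to −0.87 for *Eif3b* and −1.19 to −0.87 for *Eif3l*. For *Eif2s3y* they ran from 0.89 to 1.12. The lone library of a genotype is then assumed to vary like the others. Factor groups ran from −0.91 to −0.26 for eIF1 and eIF1A, 0.53 to 0.72 for eIF2 and related, −0.29 to −0.26 for eIF2B, −0.32 to −0.16 for eIF3, −0.19 to −0.02 for eIF4A, eIF4B and eIF4H, −0.48 to −0.03 for eIF4E, −0.030 to 0.072 for eIF4G, −0.036 to 0.23 for the eIF4E-binding genes, −0.51 to −0.19 for eIF5, eIF5B and eIF6 and −0.25 to −0.11 for all members. Among the genes named, those that changed sign in at least 1 of these were *Eif1* (−0.46 to 0.85), *Eif4enif1* (−0.12 to 0.48), *Eif5* (−0.29 to 0.042) and *Eif4ebp2* (−1.83 to 0.015).

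The deviations of same-numbered libraries from their genotype means correlated at −0.01 over the genes tested. Median reads per gene were 5 and 8 in the *Eef1g*-cKO libraries, and counting noise lowers such a correlation. It therefore cannot decide whether same-numbered libraries were paired. With the replicate number as a block, 1 member was called higher and 4 lower (*Eif1ax* in addition), and *Eef1g* passed at −3.39.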
